A study of Mus musculus with 4 samples.

Results

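The colony-stimulating factors and their receptors were followed as 7 genes of the 55450 in the table: the ligands Csf1, Csf2 and Csf3, and the receptor chains Csf1r, Csf2ra, Csf2rb and Csf3r. They were found by gene symbol, and each symbol occurred once. The cells were taken from flank tumours of the murine breast cancer line 4T1 in BALB/c females, 6 to 8 weeks old, and were sorted for the leucocyte antigen CD45 before 10x Genomics single-cell RNA sequencing. All mice received 4T1 cells, an intravenous injection on day 7 and near-infrared light (980 nm) on days 8 to 10, and tumours were taken on day 13. The injection was PBS in 2 samples and TIOs, a T-cell-inspired oncolytic system, in 1 (TIOs+NIR3). In the fourth the title says PBS and the protocol TIOs, so it was not put in a group. How many mice stand behind a sample is not stated.

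The counts of unique molecular identifiers (UMIs, each 1 captured RNA molecule) sit in a single matrix whose barcodes carry 4 suffixes, called libraries 1 to 4 below. Nothing used here ties a library to a sample, so the matrix was treated as 1 pooled sample, each library has an unknown treatment, and neither a comparison of treatments nor a p-value is given. The filter kept 32133 barcodes and removed 931, leaving 69144957 to 108363974 UMIs per library, and 101 barcode sequences occurred in more than 1 library. Marker genes, none of them a member, placed 28585 cells in 17 types, which are called "-like" because the names were rebuilt here. Levels are counts per 1000000 UMIs of the summed cells of a type (CPM), intervals are exact 95% Poisson or binomial intervals and cover counting error only, and a type was ranked in a library when it held at least 20 cells. Each type's markers were highest in it, apart from 1 marker in each of 6 types, 2 of 7 in monocyte-like cells and 3 of 6 in type 2 dendritic-like cells. The gate used these same markers, so this is not a separate check of the types. The B-like gate held 27 cells, with fewer than 20 in every library, and is not described.

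The libraries were unlike in their cells. Tumour or epithelial-like cells numbered 3995 in library 1, 291 in library 2, 0 in library 3 and 2 in library 4, and 2890 of the 3720 monocyte-like cells came from library 4. Although the cells had been sorted for CD45, its gene Ptprc stood at 10.0 CPM in tumour or epithelial-like, 17.0 CPM in fibroblast-like and 10.8 CPM in endothelial-like cells, against 696 CPM in neutrophil-like cells. Depth differed as much: the median cell held 1807 UMIs among neutrophil-like and 27919 among fibroblast-like cells. Where shares of cells are compared between types, every cell was thinned to 1000 UMIs, which kept 30243 cells and left out 1890. T-like cells, which should lack Csf1r, Csf3r and Csf2rb, gauge free RNA: after thinning 0.929% of them held Csf1r, 0.929% Csf3r and 1.14% Csf2rb. Their median was 3997 UMIs, so this gauge is rough for types of other depth.

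Csf1 (M-CSF) binds the tyrosine kinase receptor Csf1r and sustains monocytes and macrophages. Csf2 (GM-CSF) binds Csf2ra, which signals with the shared chain Csf2rb that also serves interleukin-3 and interleukin-5, and acts on neutrophils, macrophages and dendritic cells. Csf3 (G-CSF) binds Csf3r and drives the making and release of neutrophils, and 4T1 tumours are known for the expanded neutrophil pool that it brings about.

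**Figure D1:**
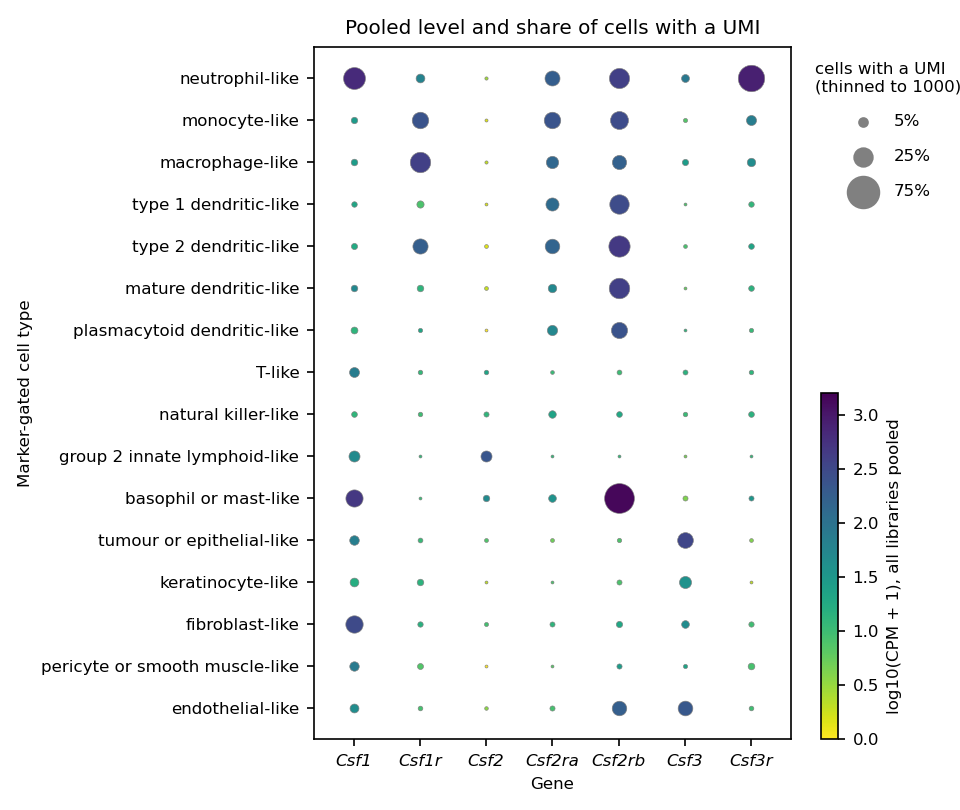
Each dot is a gene (x axis) in a marker-gated cell type (y axis): colour is the pooled level as log10(CPM + 1) and area grows with the percent of cells holding a UMI after thinning to 1000 UMIs. Csf3r was found in 52.9% of thinned neutrophil-like cells, Csf2rb in 67.5% of basophil or mast-like cells and Csf1r in 31.2% of macrophage-like cells, against 1.14% or less of T-like cells for each.

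Neutrophil-like cells had the highest level of Csf1, at 664 CPM (interval 652 to 675) over 9318 cells, followed by basophil or mast-like cells at 473 CPM (401 to 555, 80 cells) and fibroblast-like cells at 299 CPM (296 to 302, 4205 cells). The gene lies on chromosome 3 at 107741048 to 107760469 (minus strand, GRCm38). In libraries 1 to 4 the neutrophil-like level was 372, 506, 918 and 575 CPM. The fibroblast-like level was 133, 214, 409 and 276 CPM in the same order. In each library neutrophil-like cells stood above fibroblast-like cells, and library 3 was the highest in both types. Pericyte or smooth muscle-like cells (76.9 CPM), T-like cells (73.9 CPM) and tumour or epithelial-like cells (69.0 CPM) followed, and their counting intervals overlapped between neighbours. Monocyte-like and macrophage-like cells, which hold the receptor, stood at 27.5 and 26.4 CPM, and natural killer-like cells at 11.9 CPM.

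Basophil or mast-like cells were few and uneven in Csf1. Their level was 88.6 CPM in the 21 cells of library 2 and 840 CPM in the 24 cells of library 4, where they stood above neutrophil-like cells. Libraries 1 and 3 held 18 and 17 such cells and were not ranked. The pooled rank of these cells therefore rests on 80 cells whose libraries spread widely.

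Within neutrophil-like cells, Csf1 was lower where Retnlg, a gene of mature neutrophils, was detected. Retnlg-positive cells had 221, 384, 803 and 437 CPM in libraries 1 to 4. Cells without Retnlg but with Cd274, which encodes the checkpoint ligand PD-L1, had 638, 523, 993 and 729 CPM. The second group was higher in 4 of 4 libraries, by 1.24-fold to 2.88-fold, and the counting intervals were apart in all 4. Cells with neither gene had 565, 573, 1010 and 676 CPM, also above Retnlg-positive cells in each library. The median depth was close in the first groups, at 1946 UMIs in Retnlg-positive and 1875 UMIs in Cd274-positive Retnlg-negative cells. Retnlg is also one of the 10 markers of the neutrophil gate.

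Fibroblast-like cells were divided by Dpt, a gene of universal fibroblasts, and Lrrc15, a gene of tumour myofibroblasts. Csf1 in Dpt-positive Lrrc15-negative cells was 242, 423 and 310 CPM in libraries 2 to 4. In Lrrc15-positive cells it was 188, 370 and 195 CPM. The Dpt-positive cells were higher in the 3 libraries with at least 20 cells of both, by 1.15-fold to 1.58-fold, with intervals apart in each. Library 1 held 16 Dpt-positive Lrrc15-negative cells and was not counted. The summed neutrophil markers were 745 CPM in fibroblast-like cells with a Csf1 UMI and 729 CPM in those without. By library they were lower with Csf1 in library 1 (354 and 424 CPM). They were higher with it in libraries 2 (1010 and 941 CPM), 3 (735 and 618 CPM) and 4 (553 and 492 CPM). The cells with Csf1 were deeper, with a median of 31723 UMIs against 4077, and the part of depth or of these markers was not tested.

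Among T-like cells Csf1 was highest in the Cd8-positive cells, at 141 CPM (122 to 162), against 63.0 CPM in Cd4-positive Foxp3-negative and 27.9 CPM in Foxp3-positive (regulatory) cells. The lead of the Cd8-positive cells rests on library 1, which held 238 of the 259 Cd8-positive cells. There the 3 levels were 144, 19.5 and 41.6 CPM, with Foxp3-positive cells above Cd4-positive Foxp3-negative cells. The other 3 libraries had 3, 11 and 7 Cd8-positive cells, too few to rank.

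Csf2 was sparse: 2213 UMIs in 668 cells, with 53.7% of them in the 100 cells that held most. The gene lies on chromosome 11 at 54247271 to 54249667 (minus strand), 15636 bases from Il3. Its pooled level was highest in group 2 innate lymphoid-like cells, at 221 CPM (169 to 284), but 37 of those 61 UMIs came from 1 cell and 10 of 46 cells held any. Library 3, the only one with at least 20 such cells (21), gave 137 CPM. The pooled level was 66.6 CPM without the cells of highest doublet score and 97.5 CPM without library 4. With types from Leiden clusters no innate lymphoid-like type was ranked, so the lead of basophil or mast-like cells there, at 49.9 CPM, is no comparison with it. Of the gated innate lymphoid-like cells 27 had a UMI of a Cd3 gene or Trac, so the gate was not free of T-cell genes. Csf2 was 363 CPM in those 27 cells and 106 CPM in the 19 without.

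Lymphocytes and basophils followed in Csf2. T-like cells had 42.5, 15.6, 8.31 and 2.12 CPM in libraries 1 to 4. Basophil or mast-like cells had 47.3 CPM pooled, from 15 UMIs in 3 cells, and natural killer-like cells 11.9 CPM from 16 UMIs. Library 1 stood well above the rest in T-like cells. Among types with at least 20 cells, the leading type differed in every library. It was T-like in library 1, basophil or mast-like in library 2 (1 cell with a UMI) and group 2 innate lymphoid-like in library 3 (2 cells with a UMI). In library 4 it was natural killer-like, at 10.6 CPM, with an interval overlapping that of basophil or mast-like cells (9.99 CPM). The innate lymphoid-like cells of libraries 2 and 4, 11 in each and so not ranked, stood above these leaders, at 81.6 and 581 CPM. Those levels came from 9 UMIs in library 2 and 41 UMIs in library 4, of which 37 were in 1 cell.

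By count of molecules at full depth, though not by level, most Csf2 lay outside the lymphocytes. Fibroblast-like cells held 1040 UMIs (47.0% of all) at 8.12 CPM, and tumour or epithelial-like cells 610 UMIs (27.6%) at 6.65 CPM. The fibroblast-like level was 3.96, 12.4, 12.2 and 0.509 CPM in libraries 1 to 4, so libraries 2 and 3 stood above the others. The tumour-like level was 5.38 CPM in library 1 and 15.3 CPM in library 2. In macrophage-like, monocyte-like and neutrophil-like cells Csf2 stood at 0.967, 0.467 and 1.86 CPM. Pericyte or smooth muscle-like cells had no UMI of it, which allows up to 1.47 CPM by the Poisson interval.

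The 236 fibroblast-like cells with Csf2 were deep, with a median of 41661.5 UMIs against 27013 in the 3969 without. At most 26 UMIs came from 1 cell, and 33 cells held 10 or more. The T markers summed to 284 CPM in cells with Csf2 and 150 CPM in cells without. Nearly all of that was Cd3e, at 278 and 142 CPM, while each of the other 6 T markers was at or below 2.33 CPM in both groups. By library the summed T markers were higher with Csf2 in library 2 (513 and 311 CPM), less so in library 3 (160 and 139 CPM), and lower in library 4 (10.1 and 39.0 CPM, 9 cells with Csf2). The part of depth or of these markers in the Csf2 values was not tested. Csf2 overlaps the antisense gene Gm12223, so its UMIs can be told from that gene's only by strand.

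Csf3, on chromosome 11 at 98701263 to 98703629 (plus strand), was highest in tumour or epithelial-like cells, at 343 CPM (339 to 347), with 336 CPM in library 1 and 386 CPM in library 2, the libraries that held these cells. They carried 72.9% of its 43123 UMIs, up to 404 in a single cell. Csf3 was uneven among them: 2950 of 4288 cells held a UMI, the median of those was 3 UMIs, and 409 cells held 20 or more. After thinning 18.3% of them held Csf3, against 1.24% of T-like cells. Cells with the proliferation genes Mki67 or Top2a had 317 CPM in library 1 and 448 CPM in library 2, and cells with neither had 369 and 283 CPM, so the order turned between libraries.

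Endothelial-like cells came next in Csf3, at 215 CPM (203 to 227) over 300 cells. Their level was 35.2, 217 and 368 CPM in libraries 1 to 3, and 56.5 CPM in the 15 cells of library 4. Of the endothelial-like cells 118 held a UMI, with a median of 3, and 22 held 20 or more. In library 3, which had no tumour or epithelial-like cell, endothelial-like cells led all ranked types. There the summed tumour or epithelial markers were 12.6 CPM in endothelial-like cells with Csf3 and 21.5 CPM in those without. In library 2, with 77 of the 118 endothelial-like cells that held Csf3, they were higher with Csf3, at 197 CPM against 54.6 CPM, and their part in the Csf3 value was not tested. When each cell weighed the same after thinning, endothelial-like cells had 380 CPM and tumour or epithelial-like cells 315 CPM.

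Neutrophil-like cells had 70.7, 147, 56.7 and 11.8 CPM of Csf3 in libraries 1 to 4 (81.3 CPM pooled), in 562 of 9318 cells. T-like cells of the same libraries had 27.0, 9.12, 7.72 and 1.06 CPM, a gauge of free RNA in a type that should lack the gene. The neutrophil-like level stood above that of T-like cells in each library. Neutrophil-like cells were also shallower in each, with medians of 1575 against 4049 UMIs in library 1. The part of depth in this order was not tested. In libraries 3 and 4 all 8 tumour or epithelial markers were at 0 in the 150 and 21 neutrophil-like cells with Csf3. Those libraries held 0 and 2 tumour or epithelial-like cells, and such markers were rare there. In all, 25 of 3192 and 12 of 1949 neutrophil-like cells held one, so their absence from the cells with Csf3 says little. Fibroblast markers were not counted in the neutrophil-like cells with Csf3. Of those cells 5.69% were among the highest 5% of doublet scores, against 2.39% of the neutrophil-like cells without Csf3. This share was higher with Csf3 in libraries 1 to 3 and lower in library 4 (0% and 1.14%). The cells with Csf3 were also deeper, with a median of 2166.5 UMIs against 1794. The part of doublets was not tested. In library 1 the tumour or epithelial markers summed to 1497 CPM in neutrophil-like cells with Csf3 and 1058 CPM in those without. The 137 of 769 neutrophil-like cells there with no such marker had 22.1 CPM of Csf3, from 4 UMIs. That was below the 27.0 CPM of T-like cells of library 1, while the 632 cells with a marker had 77.7 CPM. Library 2 held 333 of the 562 neutrophil-like cells with Csf3, and its marker sums were 68.9 CPM with Csf3 and 69.2 CPM without. There Csf3 was 146 CPM in cells with no such marker and 155 CPM in cells with one. The part of tumour RNA in the values of libraries 1 and 2 was not tested further.

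In Cd274-positive Retnlg-negative neutrophil-like cells Csf3 was 46.8, 211, 67.9 and 63.6 CPM in libraries 1 to 4. In Retnlg-positive cells it was 79.2, 133, 67.2 and 6.24 CPM. The first group was higher in 3 of 4 libraries, with intervals apart in libraries 2 and 4 alone, and library 1 ran the other way.

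Fibroblast-like cells had 66.3, 87.3, 31.1 and 19.8 CPM of Csf3 in the 4 libraries, and macrophage-like cells 43.3, 27.7, 25.3 and 2.46 CPM. The summed tumour or epithelial markers were higher in fibroblast-like cells with Csf3 than in those without in all 4 libraries, at 1158 against 755 CPM in library 1, 99.6 against 69.6 CPM in library 2, 16.5 against 12.6 CPM in library 3 and 26.2 against 18.8 CPM in library 4, and their part was not tested. Monocyte-like cells had 61.5, 30.4, 18.0 and 1.74 CPM. In library 4 fibroblast-like cells led the ranked types. Both myeloid types were highest in library 1 and lowest in library 4. Library 1 also held 28624 of the 43123 Csf3 UMIs and library 4 held 1014.

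**Figure D2:**
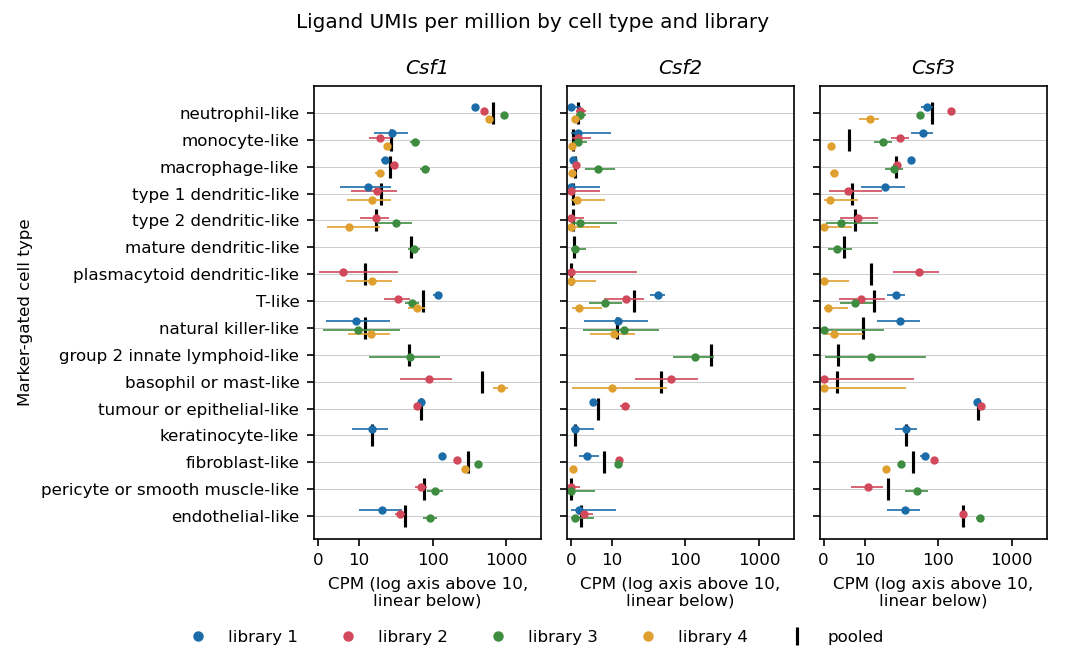
Levels of the 3 ligands (x axes, CPM, logarithmic above 10 and linear below) by cell type (y axis): points are libraries with at least 20 cells of the type, bars are exact 95% Poisson intervals, and black ticks are the pooled level. Csf1 in neutrophil-like cells spans 372 to 918 CPM, and Csf3 in endothelial-like cells spans 35.2 to 368 CPM.

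Csf1r, on chromosome 18, was highest in macrophage-like cells in each of the 4 libraries, at 441, 487, 279 and 269 CPM (393 pooled, interval 386 to 400). Monocyte-like cells were second in each, at 320, 308, 215 and 234 CPM. Type 2 dendritic-like cells had 172 CPM pooled, with 173, 160 and 189 CPM in libraries 2 to 4. Libraries 1 and 2 were above libraries 3 and 4 in both macrophage-like and monocyte-like cells, and across all libraries the ranges of these types overlapped. Neutrophil-like cells had 57.9 CPM, and every other described type was at or below 19.9 CPM. Type 1 dendritic-like cells had 7.05 CPM and mature dendritic-like cells 12.1 CPM, near the 10.6 CPM of T-like cells. Csf1r overlaps Hmgxb3 on the other strand.

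Macrophage-like cells were divided by Cd163, a scavenger receptor, then Arg1, arginase 1, then the class II gene H2-Ab1. Csf1r in Arg1-positive Cd163-negative cells was 417, 346, 250 and 233 CPM in libraries 1 to 4. In Cd163-positive cells it was 693, 566, 305 and 309 CPM. The Arg1-positive cells were lower in 4 of 4 libraries, with intervals apart in 3. Cells with H2-Ab1 but neither other gene had 445 CPM pooled, and most of them were from library 1. In the 3 libraries ranked for both groups they were above Arg1-positive cells, by 1.08-fold to 1.71-fold, with intervals apart in 2. Against Cd163-positive cells they stood at 0.648 to 1.04 in 3 libraries, higher in 1, with intervals apart and lower in 1. In monocyte-like cells Csf1r was 237 CPM with Chil3, a gene of classical monocytes, and 239 CPM without.

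Csf2ra, the ligand-specific GM-CSF chain, on chromosome 19 at 61223957 to 61228429 (minus strand), was spread over myeloid types: 233 CPM in monocyte-like, 181 in neutrophil-like, 153 in type 2 dendritic-like, 137 in macrophage-like and 121 CPM in type 1 dendritic-like cells. Monocyte-like cells had 174, 169, 227 and 240 CPM in libraries 1 to 4. Neutrophil-like cells had 167, 168, 171 and 228 CPM. The ranges overlapped, and in library 2 the levels of these types were 169 and 168 CPM. Macrophage-like cells had 189, 76.5, 77.9 and 120 CPM, and in library 1 they ranked first. Mature dendritic-like and plasmacytoid dendritic-like cells had 49.2 and 50.9 CPM, T-like cells 9.80 CPM and tumour or epithelial-like cells 4.04 CPM.

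In macrophage-like cells Csf2ra ran against Csf1r with respect to Cd163. Cd163-positive cells had 158, 67.6, 45.1 and 92.7 CPM of Csf2ra in libraries 1 to 4. Arg1-positive Cd163-negative cells had 177, 87.5, 93.9 and 131 CPM. The latter were higher in 4 of 4 libraries, with intervals apart in 3. Cells with H2-Ab1 but neither other gene had 188 CPM, and 935 of those 1135 cells were from library 1.

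The gene whose levels were most like those of Csf2ra was Spi1, which encodes the myeloid transcription factor PU.1. Over the 43 pairs of a type and a library with at least 20 cells, Spi1 had the highest Pearson r with Csf2ra of the 8015 genes compared (r = 0.95, Spearman rho = 0.92 on log2(CPM + 10)). Cd300c2 was also among the most alike, at 0.92. The pairs share libraries, depth and gate, so these values are descriptions.

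The window before the RefSeq start of Csf2ra is shown because PU.1 binds purine-rich sites with the core GAGGAA. The 250 bases upstream of the RefSeq start (GRCm38.p6, chr19:61228419-61228668, minus strand, written 5′ to 3′) hold that core 2 times, in capitals, beginning 14 and 8 bases before the start. For Csf3r, 30 bases around its single core, 86 bases before the RefSeq start (chr4:126024561-126024590, plus strand), are given.
Csf2ra: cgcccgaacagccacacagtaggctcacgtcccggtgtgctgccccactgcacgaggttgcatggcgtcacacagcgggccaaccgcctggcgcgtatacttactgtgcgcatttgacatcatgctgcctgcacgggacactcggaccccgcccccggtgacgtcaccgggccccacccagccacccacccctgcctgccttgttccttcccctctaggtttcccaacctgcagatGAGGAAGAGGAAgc
Csf3r: cctccttcctgaGAGGAAggggctgtctat
The GENCODE models printed above start further upstream than the RefSeq ones, so the Csf3r site and the second Csf2ra core lie inside the GENCODE gene, and the first Csf2ra core spans its start. Searched on both strands (GAGGAA or TTCCTC), 23.3% of the 32851 RefSeq windows of this length held the core. The windows of Csf1 and Csf2 held none. Only 4 members were searched, since Csf2rb and Csf3 had no window and Csf1r was left out, so ligands and receptors cannot be compared here. A match is a string of letters and not a measured binding site.

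Csf2rb, the signalling chain, had a wider range than Csf2ra. It was 1382 CPM (1256 to 1518) in basophil or mast-like cells, where Csf2ra was 34.7 CPM from 11 UMIs. The libraries gave 793, 1354, 1772 and 1559 CPM, in 18, 21, 17 and 24 cells, and in libraries 2 and 4, the only ones ranked for this type, it led all others. After thinning, 67.5% of basophil or mast-like cells held Csf2rb (interval 55.9 to 77.8).

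Type 2 dendritic-like cells were next in Csf2rb at 471 CPM, followed by neutrophil-like (396 CPM), mature dendritic-like (393 CPM), type 1 dendritic-like (297 CPM), monocyte-like (291 CPM) and plasmacytoid dendritic-like cells (238 CPM). Neutrophil-like cells had 342, 424, 355 and 444 CPM in libraries 1 to 4. Monocyte-like cells had 350, 423, 439 and 263 CPM, and macrophage-like cells 212, 178, 151 and 86.3 CPM. Macrophage-like cells were below both other types in each library. Of 230 mature dendritic-like cells 194 were from library 3, the only library ranked for them.

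Among stromal types Csf2rb was highest in endothelial-like cells, at 132, 178 and 140 CPM in libraries 1 to 3 (173 pooled, 163 to 184). Pericyte or smooth muscle-like cells had 26.7 CPM and fibroblast-like cells 18.6 CPM. Csf2ra in endothelial-like cells was 7.70 CPM, and in T-like cells 9.80 CPM. Endothelial-like cells were deeper, with a median of 11731.5 UMIs against 3997, so the T-like value does not set their floor.

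Csf2rb lies on chromosome 15 at 78325752 to 78353847 (plus strand, GRCm38), 20031 bases from Csf2rb2, a near-identical copy that serves interleukin-3. Reads that match both genes could therefore affect the counts of either, and their handling was not examined. The summed UMIs of both split unevenly by type: Csf2rb2 was 47.2% of both in plasmacytoid dendritic-like cells (42.2 to 52.2), 38.9% in basophil or mast-like (35.3 to 42.6), 33.3% in endothelial-like and 13.3% in monocyte-like cells (12.7 to 14.0). Csf2rb2 was also the gene most like Csf2rb over the 43 pairs (r = 0.90), ahead of Pirb (0.82).

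Csf3r, on chromosome 4 at 126024550 to 126044440 (plus strand), was highest in neutrophil-like cells in each library, at 559, 773, 724 and 1270 CPM (835 pooled, 822 to 848). They held 70.2% of its UMIs. The next type was below 80 CPM in every library: monocyte-like cells had 36.9, 69.9, 66.3 and 71.3 CPM, and macrophage-like cells 23.2, 76.5, 44.5 and 50.4 CPM. T-like cells had 11.7 CPM and tumour or epithelial-like cells 3.06 CPM. Of the 7 members only Csf1r and Csf3r had the same leading type, among ranked types, in all 4 libraries. The share of all genes with such a constant lead was not counted. Cell numbers limit this count: tumour or epithelial-like cells, which led Csf3 pooled, were ranked in libraries 1 and 2 alone. Basophil or mast-like cells, which led Csf2rb pooled, were ranked in libraries 2 and 4 alone.

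Csf3r also varied within myeloid types. In Cd274-positive Retnlg-negative neutrophil-like cells it was 490, 572, 678 and 1087 CPM in libraries 1 to 4, and in Retnlg-positive cells 593, 845, 726 and 1304 CPM. The former were lower in 4 of 4 libraries, at 0.677 to 0.934 of the latter, with intervals apart in 2. In monocyte-like cells Csf3r was higher with Chil3 than without in the 3 libraries ranked for both, by 1.31-fold to 2.13-fold, with intervals apart in each. Those levels were 97.0, 82.0 and 78.3 CPM with Chil3 and 45.6, 52.9 and 59.6 CPM without in libraries 2 to 4.

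**Figure D3:**
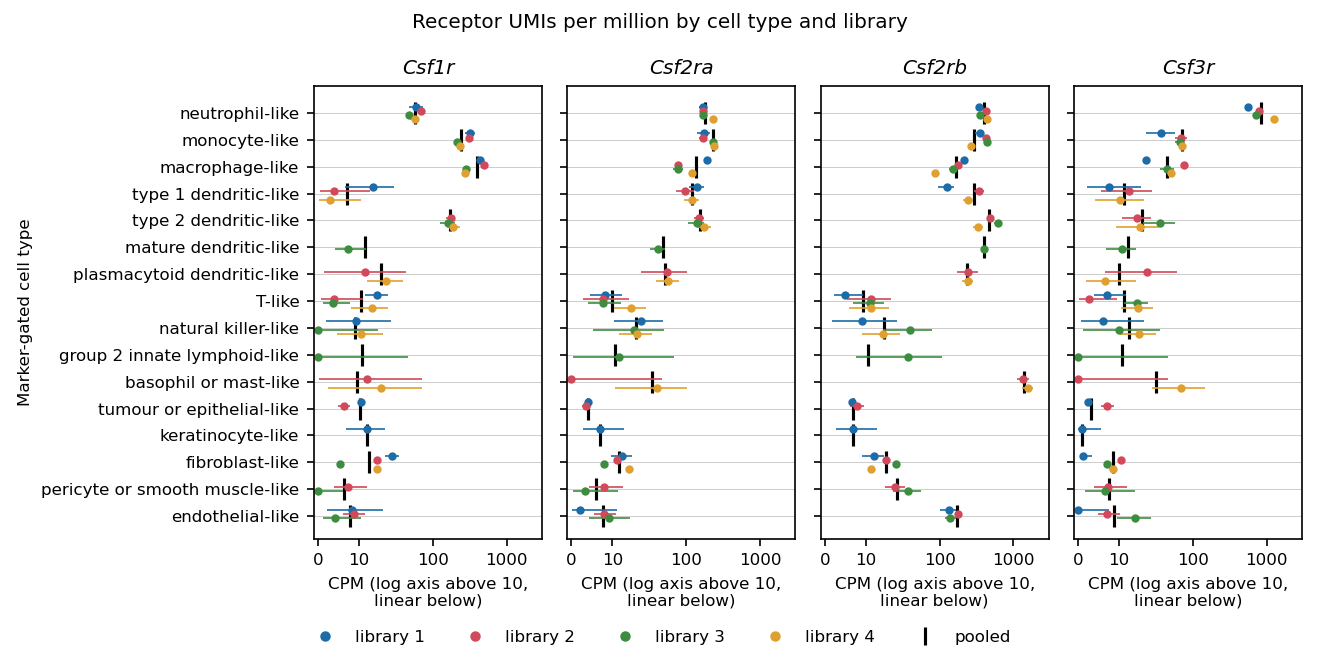
Levels of the 4 receptor chains (x axes, CPM, logarithmic above 10 and linear below) by cell type (y axis), with points for libraries of at least 20 cells, exact 95% Poisson intervals as bars and pooled levels as black ticks. Csf3r sits at 559 to 1270 CPM in neutrophil-like cells and below 80 CPM in other ranked types. Pooled Csf2ra is 233 CPM in monocyte-like, 137 CPM in macrophage-like and 49.2 CPM in mature dendritic-like cells.

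**Figure D4:**
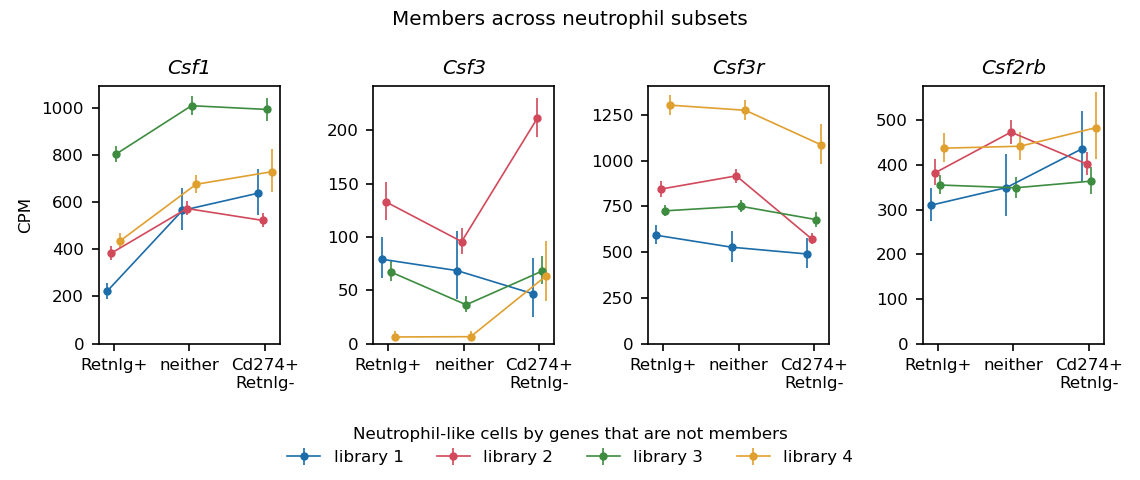
CPM of 4 members (y axes, from 0) in neutrophil-like cells with Retnlg, with neither gene, or with Cd274 but not Retnlg, by library; lines join the 3 cell groups of a library, which have no order in time, and bars are exact 95% Poisson intervals. Csf1 is higher in the Cd274-positive than in the Retnlg-positive group of each library (638 and 221 CPM in library 1), while Csf3r is lower.

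Members were then counted in the same cell, with cells thinned. In neutrophil-like cells Csf3 was found in 2.66% of the cells with Csf3r (2.21 to 3.17) and 5.82% of those without (5.12 to 6.58). Csf2rb was found in 32.5% of cells with Csf3r (31.2 to 33.9) and 28.1% of those without (26.7 to 29.5). For Csf3 the intervals were apart and the share lower with Csf3r in libraries 2 (4.45% and 9.21%) and 3 (1.77% and 4.24%), overlapped in library 4 (0.620% and 0.709%), and ran the other way with overlap in library 1 (6.93% and 5.07%). For Csf2rb the share was higher with Csf3r in each library, with intervals apart in library 2 alone. Csf1 was found in 36.8% of neutrophil-like cells with Csf3r and 35.3% of those without, with overlapping intervals.

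Csf2rb was found in 31.2% of neutrophil-like cells with Csf2ra and 30.3% without, 26.3% and 23.6% of monocyte-like cells, and 14.3% and 14.9% of macrophage-like cells. All 3 pairs of intervals overlapped. At full depth the shares were 67.3% and 40.2% in macrophage-like cells.

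In tumour or epithelial-like cells Csf2 was found in 1.30% of thinned cells with Csf3 (10 of 771 cells, 0.624 to 2.37) and 0.349% of those without (0.181 to 0.609). Csf3 was found in 23.1% of cells with Csf1 (18.2 to 28.7) and 18.0% without (16.8 to 19.2). The first pair of intervals was apart and the second overlapped. Library 2, with 291 such cells, gave 1.75% and 1.71% for Csf2, from 5 cells with Csf2.

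For Csf1, Csf2ra and Csf2rb the gated type with the largest share of the molecules changed with the weight given to deep cells, and for the other 4 members it did not. At full depth fibroblast-like cells held 60.4% of the Csf1 UMIs and neutrophil-like cells 19.7%. With every cell at 1000 UMIs, neutrophil-like cells held 72.4% and fibroblast-like cells 14.2%. For Csf2ra the neutrophil-like share went from 16.6% to 46.7% and for Csf2rb from 22.5% to 54.1%, in place of monocyte-like cells at full depth. The neutrophil-like share went from 70.2% to 89.5% for Csf3r, and for Csf3 the tumour or epithelial-like share went from 72.9% to 48.9%. For Csf2 the fibroblast-like share fell from 47.0% to 18.4% (27 of 147 UMIs) and the tumour or epithelial-like share from 27.6% to 16.3%. After thinning 28.6% of the Csf2 UMIs lay in ungated cells. Csf1r moved least, with 48.1% and 45.4% in macrophage-like cells. These shares depend on how many cells of a type were captured as well as on their levels.

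**Figure D5:**
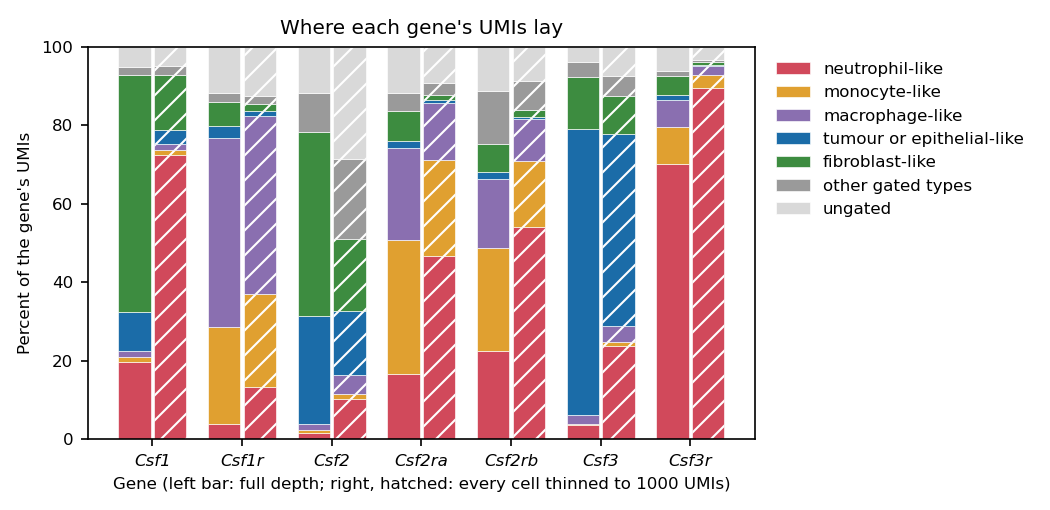
Percent of each gene's UMIs (y axis) by cell type, as stacked bars: the left bar of a pair is full depth and the right, hatched bar has every cell thinned to 1000 UMIs. Csf1 passes from mostly fibroblast-like (60.4%) to mostly neutrophil-like (72.4%).

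Other ligands of the family were scarce or local. Il34, the second ligand of Csf1r, was 69.3 CPM in pericyte or smooth muscle-like cells and below 10 CPM in the other described types. Il5, which signals through Csf2rb with Il5ra, was 537 CPM in group 2 innate lymphoid-like cells (148 UMIs), while Il3 had 9 UMIs and Il5ra 10 UMIs in all cells. Il3ra, the interleukin-3 chain that pairs with Csf2rb, was 66.3 CPM in basophil or mast-like cells from 21 UMIs and 50.3 CPM in fibroblast-like cells from 6444.

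Among signalling genes, Jak2, the kinase bound to Csf2rb, was highest in mature dendritic-like cells (317 CPM), as were Stat3 (534 CPM), Stat5a (70.6 CPM) and the feedback inhibitor Socs2 (469 CPM). Stat5b was highest in T-like cells (92.0 CPM) and Jak1 in natural killer-like cells (502 CPM). Cish, a STAT5 target, was 330 CPM in group 2 innate lymphoid-like, 293 CPM in basophil or mast-like and 197 CPM in T-like cells. Socs3, an inhibitor of Csf3r signalling, was 483 CPM in pericyte or smooth muscle-like, 403 CPM in endothelial-like, 390 CPM in macrophage-like and 358 CPM in neutrophil-like cells. Pim1, a cytokine-induced kinase, was highest in neutrophil-like cells (3372 CPM). Lyn, a Src kinase, was highest in monocyte-like cells (385 CPM), Ptpn6, a phosphatase that dampens cytokine receptors, in plasmacytoid dendritic-like cells (292 CPM), and Socs1 in mature dendritic-like cells (225 CPM).

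Of the transcription factors of the myeloid programme, Spi1 was 431 CPM in monocyte-like, 384 CPM in neutrophil-like and 333 CPM in macrophage-like cells. Cebpb was 4424 CPM in neutrophil-like and 1466 CPM in monocyte-like cells, whereas Cebpe, a gene of neutrophil precursors, was 19.7 CPM in monocyte-like and 13.8 CPM in neutrophil-like cells. Cebpa was 123 CPM in basophil or mast-like and 108 CPM in macrophage-like cells.

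The genes whose levels followed the other members most closely over the 43 pairs were Clec4a3 (r = 0.95), Clec4a2 (0.93) and Ms4a6d (0.91) for Csf1r, and B430306N03Rik (0.94), Gm43181 (0.93) and Trim30b (0.93) for Csf3r. For Csf3 they were Hbegf (0.79), Zfp503 (0.77) and Slco2a1 (0.76). For Csf1 they were Igf1r (0.74), Egr1 (0.72) and Irak3 (0.72), and for Csf2 Dtnb (0.76), Cited4 (0.74) and Calca (0.73). By rank the genes named for Csf2 were less alike, with Spearman rho of 0.60, 0.37 and 0.53 in that order. The third gene for Csf2rb was Kctd12 (0.82). The best value was below 0.80 for each ligand and 0.90 or above for each receptor. The highest Csf2 levels among the pairs were 137 CPM in innate lymphoid-like cells of library 3 (2 cells with a UMI) and 63.3 CPM in basophil or mast-like cells of library 2 (1 cell with a UMI). Most other pairs were below the 10 CPM added before the logarithm. The part of these few cells in the r values of Csf2 was not tested.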

How the data were processed

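Cells of 4T1 tumours were profiled by 10x Genomics sequencing. The authors deposited 1 matrix of raw UMI counts, aligned and counted with Cell Ranger against mm10. Its version is 2.1.1 in the submitters' processing notes, 6.1.2 in the matrix header and 3.0.2 in the design text. Gene positions are from GENCODE (GRCm38), and promoter sequences come from RefSeq (GRCm38.p6).

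Barcodes with at least 300 genes and at most 15% mitochondrial UMIs were kept (32133 cells, where the design text gives 15603 after filtering). The medians per library were 11698, 2641.5, 2695 and 7182 UMIs. Doublets were kept, with the highest 5% of Scrublet scores removed as an alternative. A cell was gated to the type with the most marker signal if it held at least 3 of that type's markers and its score was at least 1.25 times the next, a scoring rule set after the values were seen. The gate left 3548 cells untyped, and 2511 cells lay near the 1.25 margin. On simulated data of 4200 cells it returned 98.0% to their own type. Those cells were simulated and not measured, so this recovery is not a separate check of the types. It is a single value over all simulated cells and cannot speak for small types, such as innate lymphoid-like and basophil or mast-like cells. Cells were thinned at random to 1000 UMIs with a fixed seed. Subsets were cut by detection of genes that are not members.

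The members, gene lists and markers were chosen with earlier results of these data known. The named genes are the members, 22 pathway genes, the gate markers and, per member, the 3 genes with the highest Pearson r of log2(CPM + 10), of which 1 is not reported here. No test across groups was run, since no library is tied to a treatment. Removing barcode sequences shared between libraries was an alternative added after the data were seen. Work was done in Python 3.11.15 with scanpy 1.11.5, numpy 2.4.6, scipy 1.17.1 and pandas 2.3.3.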

Additional observations from a re-analysis of the deposited data

How the results depend on the processing

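Alternatives to the cell filter, doublet removal, gate, weighting of cells, depth and libraries were tried. Across alternatives the main counts stayed within 1.5 times in 35 comparisons and moved further in 1. For counts this small the rule is wide, since 2 against 3 members falls within it. The level in the leading type moved by more than its counting interval in 33 comparisons and by less in 50, and among all single values, these included, 45 moved and 129 did not. The count of members with over 50% of their UMIs in 1 type went from 3 (Csf1, Csf3, Csf3r) to 5 when types came from Leiden clusters (Csf1, Csf1r, Csf2, Csf3, Csf3r). The share of all genes that pass this limit was not counted, so neither count can be called high or low. With each library left out in turn, 7 members kept their leading type, the count with the same leading type in every library was 2 to 3, and the count over 50% was 3 to 4. The leading type changed for 1 member in each of 3 alternatives. Csf3 passed to endothelial-like cells with equal weight per cell and after thinning. For Csf2 no innate lymphoid-like type was ranked with Leiden clusters, so its change there is a missing type and not a lost rank. Csf2 in innate lymphoid-like cells ranged from 66.6 CPM, without the highest doublet scores, to 314 CPM, and was 97.5 CPM without library 4. In their own leading types the others ranged from 511 to 751 CPM for Csf1, 358 to 443 for Csf1r, 202 to 237 for Csf2ra, 1277 to 1636 for Csf2rb, 315 to 386 for Csf3 and 730 to 903 CPM for Csf3r. No paired analysis was possible because the libraries carry no sample numbers and no test was made. The Csf2 and Csf2rb levels rest on 46 innate lymphoid-like and 80 basophil or mast-like cells.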
